A study of Mus musculus with 6 samples.

Results

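The features described here are stretches of the genome that the authors' deposited table listed under an assembler identifier (MSTRG) with no gene symbol, and that overlapped, by at least 1 base on the listed strand, an exon of an annotated long noncoding RNA gene of GENCODE M21. Of the 34518 features of the table, 1601 overlapped such an exon, 83 of these carried a symbol and 25 lay over exons of small RNA genes. The remaining 1493 features, 4.33% of the table, belonged to 1086 annotated noncoding genes. The rule used no measured value.

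Long noncoding RNAs are transcripts with no recognised long reading frame. Some act at the locus they are made from, many are spliced and polyadenylated like messenger RNA, and others are unprocessed by-products of transcription at enhancers and promoters. FOG2, encoded by Zfpm2, does not bind DNA itself. It is a cofactor that binds GATA transcription factors such as GATA4 in heart muscle and changes how they act on their target genes.

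The tissue was the left atrium of adult mice of CD1, an outbred stock. The 3 FOG2_OE libraries were from animals overexpressing FOG2, and the 3 WT libraries from wild-type animals. The labels call the animals DTG and NTG, and all of them were reared without doxycycline for 1 week before the hearts were taken. The promoter and cell type that drove the transgene are not given in the sources used here. Ribosomal RNA and polyadenylated RNA were both removed, which leaves RNA without a poly(A) tail, and the library kit, TruSeq RNA v2 per the labels, gives reads without strand. "Listed strand" and "opposite" below are the table's and the annotation's strands, not strands read from the RNA.

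Levels are fitted reads per 1000000 reads of the effective library (CPM), computed from the fitted values of the authors' model. Those values have the same CPM in every library of a group, so that a single CPM is given for each group and no spread between libraries can be read from it. Each log2 fold change of FOG2_OE over WT and each adjusted p below is from the authors' deposited table (likelihood ratio test, Benjamini-Hochberg adjustment over all 34518 features). Its standard error (SE) was solved from the deposited likelihood ratio. "Called" means an adjusted p under 0.05 by the authors' deposited table. The labels do not say how the replicates were obtained, so that these p-values measure only the spread between the 6 libraries.

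Effective library sizes were 71180401 to 84907173 reads. The overexpressed gene served as the check of the labels: the feature inside Zfpm2 stood at 416 CPM in FOG2_OE against 0.484 CPM in WT. As a check of the tissue, the features within 10 kb of the 4 atrial muscle genes Myl7, Sln, Nppa and Myl4 summed to 12.4 CPM in FOG2_OE against 26.9 CPM in WT, with Myl7 (2.19 CPM in FOG2_OE against 10.4 CPM in WT) and Sln (5.64 CPM in FOG2_OE against 12.6 CPM in WT) at lower sums in FOG2_OE. Nppa (1.58 CPM in FOG2_OE against 1.31 CPM in WT) and Myl4 (2.94 CPM in FOG2_OE against 2.60 CPM in WT) were not. No feature lay within 10 kb of the 3 ventricular muscle genes Myl2, Irx4 and Hey2. Features near the marker genes of fibroblasts (2 of 3 genes with features) summed to 2.74 CPM in FOG2_OE against 3.12 CPM in WT, those of endothelium (3 of 3) to 1.78 and 1.49 CPM in FOG2_OE and WT, and those of immune cells (1 of 3) to 1.09 and 0.960 CPM in FOG2_OE and WT. Neither of the 2 red blood cell genes had a feature. The part of these shifts in the results below was not tested, and in whole tissue fewer cells of a type and less RNA per cell cannot be told apart.

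The Hand2os1 result turns on what the sequence under its feature is. That sequence is shown with others, 4 in all. The first is the whole Hand2os1 feature, MSTRG.80406 (GRCm38, chr8:57291534-57291804, minus strand, 271 bases, from the GENCODE M21 transcript), which rose in FOG2_OE. It lies in the processed pseudogene Gm17994, a copy of the messenger RNA of ribosomal protein gene Rps7, and 257 of its 271 bases (94.8%) were identical to the Rps7 transcript over a gapless alignment. Capitals mark the 14 bases that differ from Rps7.
Hand2os1 feature: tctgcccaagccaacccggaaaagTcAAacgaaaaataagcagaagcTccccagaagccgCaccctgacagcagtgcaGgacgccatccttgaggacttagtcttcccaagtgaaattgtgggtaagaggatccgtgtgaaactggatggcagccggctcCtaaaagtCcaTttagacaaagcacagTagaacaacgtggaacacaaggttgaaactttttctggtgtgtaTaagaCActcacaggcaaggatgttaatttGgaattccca
The second is a wholly exonic feature of 2310039L15Rik that fell, MSTRG.10091 (GRCm38, chr10:95363656-95363832, plus strand, 177 bases, from the GENCODE M21 transcript), shown because several pieces of this noncoding gene fell together. All of it is in lower case, since no base is singled out.
2310039L15Rik feature: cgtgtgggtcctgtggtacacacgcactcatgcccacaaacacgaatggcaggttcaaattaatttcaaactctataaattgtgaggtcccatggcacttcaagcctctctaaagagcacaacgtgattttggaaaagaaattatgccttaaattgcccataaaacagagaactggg
The remaining pair are RefSeq start windows on GRCm38.p6, running 250 bases upstream to 50 bases downstream of the start of a gene whose feature rose (2310015D24Rik, chr16:13521058-13521357, minus strand) and of a gene whose feature fell (Gm12409, chr4:45764174-45764473, minus strand). Both RefSeq starts coincide with the GENCODE start. Capitals mark TTATCT, the reverse complement of the GATA motif AGATAA, which occurs once in the Gm12409 window and not in that of 2310015D24Rik.
2310015D24Rik start window: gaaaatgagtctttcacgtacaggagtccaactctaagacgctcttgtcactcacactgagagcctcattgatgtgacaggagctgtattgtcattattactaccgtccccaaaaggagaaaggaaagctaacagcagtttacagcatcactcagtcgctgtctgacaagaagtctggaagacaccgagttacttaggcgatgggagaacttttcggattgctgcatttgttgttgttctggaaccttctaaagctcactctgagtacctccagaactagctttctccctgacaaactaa
Gm12409 start window: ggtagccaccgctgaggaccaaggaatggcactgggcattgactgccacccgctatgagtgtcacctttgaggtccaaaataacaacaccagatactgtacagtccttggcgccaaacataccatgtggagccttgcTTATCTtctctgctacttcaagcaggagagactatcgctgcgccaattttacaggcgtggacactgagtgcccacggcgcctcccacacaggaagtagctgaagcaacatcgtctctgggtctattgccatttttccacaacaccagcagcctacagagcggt
The motif is a match of letters and not a measured binding site. Only the exact letters AGATAA, on either strand, were searched, and other forms of the GATA motif were not counted. AGATAA was absent from the start windows of 4631405J19Rik, whose feature rose, and of Gm30085, whose feature fell. Over all matched windows it occurred in 2 of 6 of genes with a higher feature and 5 of 32 of genes with a lower feature. No test was made.

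Most of the 1493 features were short and scarce. The median span was 563 bases (middle 50% of features, 197 to 2075 bases, longest 189991), and the median level was 0.167 CPM in FOG2_OE against 0.200 CPM in WT. Fitted values were 0 for 9 features in FOG2_OE and for 2 in WT. By annotated type they comprised 571 lincRNA, 402 antisense, 266 TEC (loci whose transcripts await experimental support), 182 processed transcript, 62 bidirectional promoter, 8 sense overlapping and 2 sense intronic features. A feature is not the same as a noncoding gene: 805 genes held 1 feature and 281 held more, up to 6. Annotated noncoding exons covered a median of 75.35% of the feature. They covered all of 612 features, at least 50% of 869 (58.2%), and under 10% of 216, which touch an annotated exon but run far past it. Exons of protein-coding genes on the opposite strand lay under 333 features (22.3%), and reads of those genes could not be kept apart from reads of the noncoding RNA. Same-strand coding exons lay under 23 features. With introns included, 511 features overlapped a coding gene body on the opposite strand and 26 one on the same strand. Unspliced RNA of those genes could not be kept apart either.

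All 1493 features together summed to 3825 CPM in FOG2_OE against 4261 CPM in WT. This was 7.29% of the summed level of all listed features in FOG2_OE and 9.62% in WT. A few features made up much of it, the 10 most abundant holding 47.8% of the sum in FOG2_OE and 43.8% in WT. Over the 869 features covered to at least 50% by noncoding exons the sum was only 346 CPM in FOG2_OE against 382 CPM in WT. The larger part of the summed level lay in features that extend past annotated noncoding exons.

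**Figure D1:**
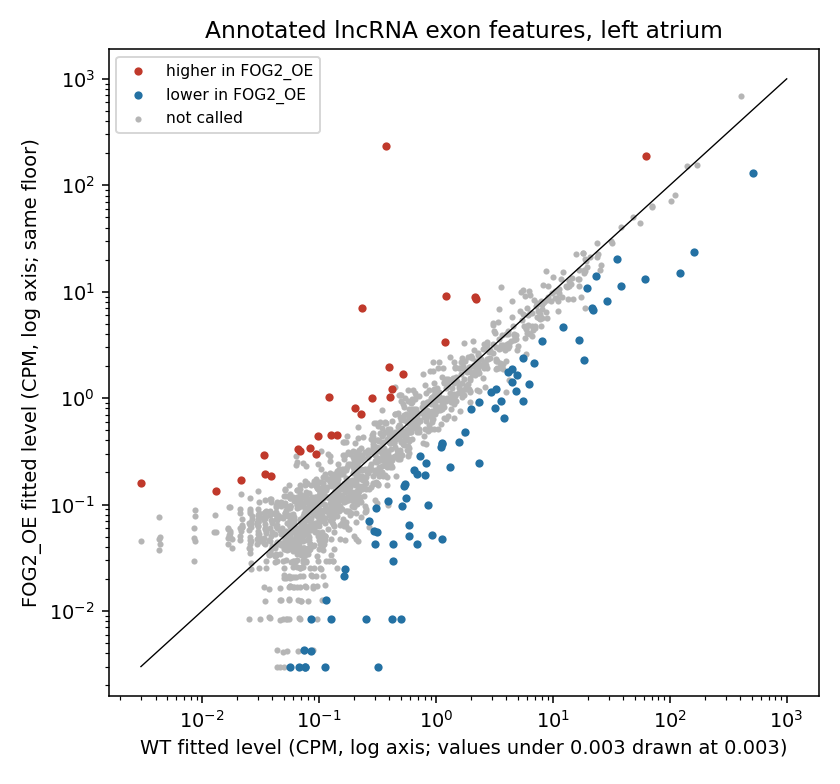
Level of each of the 1493 features in FOG2_OE against its level in WT, both in CPM on log axes, with features called higher and lower in colour and the black line marking equal levels; values under 0.003 CPM are drawn at 0.003. The features scatter around the line, with 77 called lower and 28 called higher.

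More of these noncoding features fell than rose with FOG2 overexpression, as over the whole table, where 402 features were called higher and 1605 lower. By the adjusted p of the authors' deposited table, 28 of the features (1.88%) rose and 77 (5.16%) fell, against a background of 1.16% higher and 4.65% lower among all 34518 features. In either direction 105 features (7.03%) were called, against 5.81% of all features. The called features belonged to 94 noncoding genes, 25 with a higher and 69 with a lower feature. Log2 fold changes by the authors' deposited table ranged from 1.32 to 9.31 (median 2.09) among the higher features. Among the lower features they ranged from -7.65 to -0.72, with a median of -2.20. The median over all 1493 features by the authors' deposited table was -0.18, and 887 (59.4%) lay below 0. Over the whole table the median was -0.21 and 60.6% lay below 0.

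The share of called features was larger at higher abundance: 2.74% of noncoding features under 5 fitted counts per library, 4.93% from 5 to 20, 9.22% from 20 to 100 and 12.7% above 100, beside 4.36%, 5.23%, 7.71% and 12.01% of all features at these levels. The noncoding features were more abundant than the others (median fitted count 14.4 per library, against 7.07 in the other 33025 features). Among features of at least 20 fitted counts, 18 higher and 53 lower of 657 noncoding ones were called by the authors' deposited table, or 10.8%, against 9.0% of the 8176 such features in the table (1.76% higher and 7.24% lower). No test was made of this difference in shares. With the ratio of FOG2_OE to WT centred so that its median over all features is 1 (a shift of -0.22 on the log2 scale), 38 noncoding features were higher and 57 lower, so that 60% rather than 73.3% of the called ones were lower, against 1.63% of all features higher and 3.47% lower on that scale. The authors' test takes each dispersion as given, and calls were fewer with an F distribution in place of the chi-square one: 7 higher and 26 lower with 10 denominator degrees of freedom (0.203% of all features higher and 1.07% lower), and 0 with 4. With 4 degrees of freedom the unadjusted p was under 0.05 for 34 higher and 93 lower noncoding features, beside 1.53% of all features higher and 5.58% lower.

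Calls were spread unevenly over the annotated types. Among features of at least 20 fitted counts, where the median SE was 0.39 to 0.42 in these types, 12 of 282 lincRNA features rose and 34 fell, so that 16.3% were called by the authors' deposited table. Antisense features gave 3 higher and 12 lower of 163 (9.20%). TEC features gave 1 higher and 3 lower of 107 (3.74%), and processed transcripts 1 and 3 of 79 (5.06%), by the authors' deposited table. Set beside the 9.0% of all features at this level, lincRNA features stood above and TEC features below. Median fitted counts per library were 107 in lincRNA, 62.3 in antisense, 81.0 in TEC and 84.9 in processed transcript features. Over all features at this level the median was 51.3.

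Called shares also differed with the distance from protein-coding genes. Of the 132 features at this level whose gene starts within 1 kb of a coding start on the other strand, a head-to-head arrangement typical of transcripts from shared promoters, 1 rose and 1 fell (1.52%) by the authors' deposited table. Of the 244 whose gene starts within 10 kb of a coding start, 3 rose and 8 fell (4.51%). For genes starting 10 to 100 kb away 12 of 323 features rose and 34 fell (14.2%), and beyond 100 kb 3 of 90 rose and 11 fell (15.6%), by the authors' deposited table. Abundance differed between these classes too, with median fitted counts per library of 54.4, 55.3, 111 and 130 in the order given. Features covered to at least 50% by noncoding exons gave 1 higher and 11 lower calls of 214 (5.61%), and those covered less 17 and 42 of 443 (13.3%), by the authors' deposited table. The less covered ones also had more fitted counts (median 126 per library, against 51.0 in the better covered ones). None of these differences between classes was tested, and the classes overlap.

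**Figure D2:**
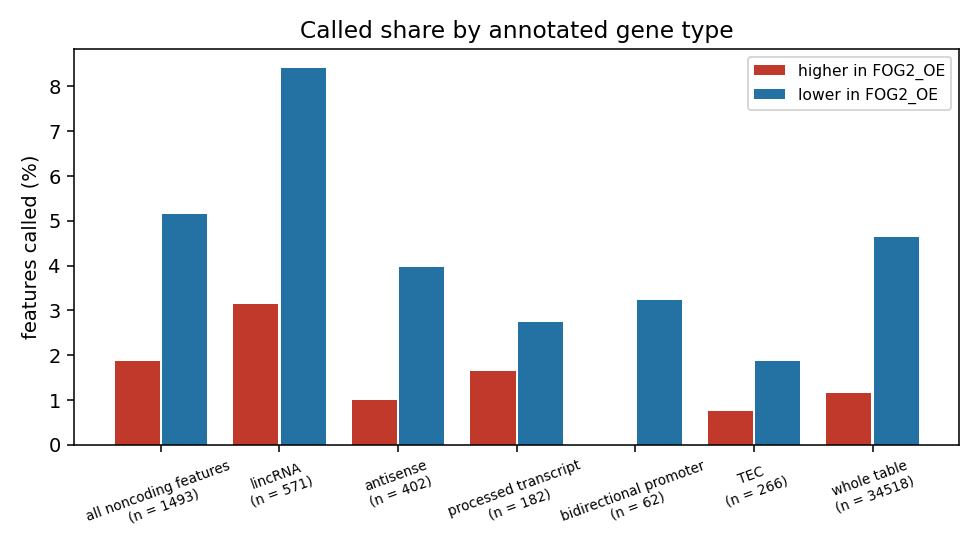
Percentage of features called higher (red) and lower (blue) in FOG2_OE, for all 1493 noncoding features, for the 5 largest annotated types and for the whole table, without a minimum level, so that abundance differs between the bars. Lower calls exceed higher calls in every group drawn, and lincRNA features reach 3.15% higher and 8.41% lower, beside 1.16% and 4.65% in the whole table.

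The feature that rose the most was MSTRG.83493 (chr9:14340850-14359031, 18182 bases), assigned to the lincRNA gene Gm47326. It stood at 236 CPM in FOG2_OE against 0.371 CPM in WT, a log2 fold change of 9.31 (SE 0.26, adjusted p = 3.2e-193) by the authors' deposited table. Only 0.55% of it is annotated Gm47326 exon, while 21.4% lies over exons of Endod1, an endonuclease-domain protein gene annotated on the opposite strand. Neighbours here and below are listed features within 100 kb that are not annotated noncoding exon features themselves and do not overlap the feature. Of its 5 neighbours 4 were called higher, and the median log2 fold change of the 5 was 5.50 by the authors' deposited table. Whether its reads are those of Gm47326, of Endod1 or of unannotated transcription was not tested.

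Next in order of adjusted p was MSTRG.79359 of Gm35934, opposite Agpat5, a gene of phospholipid synthesis. It had 7.02 CPM in FOG2_OE against 0.233 CPM in WT (log2 fold change 4.91, SE 0.50, adjusted p = 1.3e-15, by the authors' deposited table). Agpat5 exons covered 19.1% of it. MSTRG.87881 of the lincRNA AU023762, with no coding exon on either strand, had 9.16 CPM in FOG2_OE against 1.22 CPM in WT (log2 fold change 2.90, SE 0.38, adjusted p = 1.4e-10, by the authors' deposited table). These features were low in WT, and both rose by over 2 units on the log2 scale.

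The feature that rose with the highest mean level over both groups lies at a signalling gene. MSTRG.17860 of Gm48898 reached 189.5 CPM in FOG2_OE, against 62.5 CPM in WT (log2 fold change 1.60, SE 0.23, adjusted p = 2.6e-09, by the authors' deposited table). It lies on the same strand as Gdf7, a ligand gene of the bone morphogenetic protein family, and 11.3% of it is Gdf7 coding-gene exon. Annotated noncoding exons covered 21.2% of it, and a protein-coding start lies within it. Whether its reads are those of Gm48898 or of Gdf7 was not tested. None of its 8 neighbours was called.

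Some of the higher features stood in places free of coding exons. MSTRG.32687 of 2310015D24Rik, the gene whose start window is shown above, had 8.62 CPM in FOG2_OE against 2.19 CPM in WT (log2 fold change 1.97, SE 0.31, adjusted p = 1.5e-07, by the authors' deposited table). Its gene starts 147 kb from the nearest coding start, that of Parn, and 0 of its 13 neighbours were called. MSTRG.47388 of 4631405J19Rik, inside Prdm11 but over none of its exons, had 8.85 CPM in FOG2_OE against 2.18 CPM in WT (log2 fold change 2.02, SE 0.36, adjusted p = 4.3e-06, by the authors' deposited table). Unspliced RNA of Prdm11 could not be kept apart there. MSTRG.76820 of Gm26862 had 1.95 CPM in FOG2_OE against 0.397 CPM in WT (log2 fold change 2.29, SE 0.43, adjusted p = 2.6e-05, by the authors' deposited table). It spans 62909 bases, of which 0.51% is noncoding exon.

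The Hand2os1 feature shown above was the one called feature among the listed noncoding RNAs. Hand2os1, also called upperhand, is transcribed away from Hand2, a transcription factor gene needed for the developing heart. MSTRG.80406 stood at 0.161 CPM in FOG2_OE and at 0 in WT, at least 12.4-fold higher with a floor of 3 counts over the WT group (adjusted p = 0.00049 by the authors' deposited table). The floor covers counting error only. With 94.8% identity to Rps7, the feature is uncertain: whether reads of Rps7 or of its other copies were placed here was not tested. The call was lost with 10 denominator degrees of freedom (adjusted p = 0.0719). 5033428I22Rik, another noncoding gene beside Hand2, had 15.3 CPM in FOG2_OE against 12.2 CPM in WT in MSTRG.80413 and was not called (log2 fold change 0.32, SE 0.27, adjusted p = 0.592, by the authors' deposited table).

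The last of the 12 higher features with the smallest adjusted p were scarce. MSTRG.31820 of 2610037D02Rik had 0.291 CPM in FOG2_OE against 0.0341 CPM in WT, MSTRG.79866 of Gm26578 had 0.317 CPM in FOG2_OE against 0.0689 CPM in WT, and MSTRG.40425 of AC121603.3 had 0.804 CPM in FOG2_OE against 0.202 CPM in WT. Of the Gm26578 feature 80.5% lies over exons of Nrg1, a neuregulin gene annotated on the opposite strand. MSTRG.91653 of Gm15726, opposite the ubiquitin ligase gene Mid1 on chromosome X, had 1.03 CPM in FOG2_OE against 0.123 CPM in WT. Coding exons on the opposite strand covered 13.3% of the Gm15726 feature, and annotated noncoding exons 8.16%. In the order given, the log2 fold changes of the 4 by the authors' deposited table were 3.04 (SE 0.75), 2.18 (SE 0.55), 1.98 (SE 0.48) and 3.05 (SE 0.75), with adjusted p from 0.00092 to 0.0036. None of the 4 passed with 10 denominator degrees of freedom (adjusted p from 0.0831 to 0.117).

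**Figure D3:**
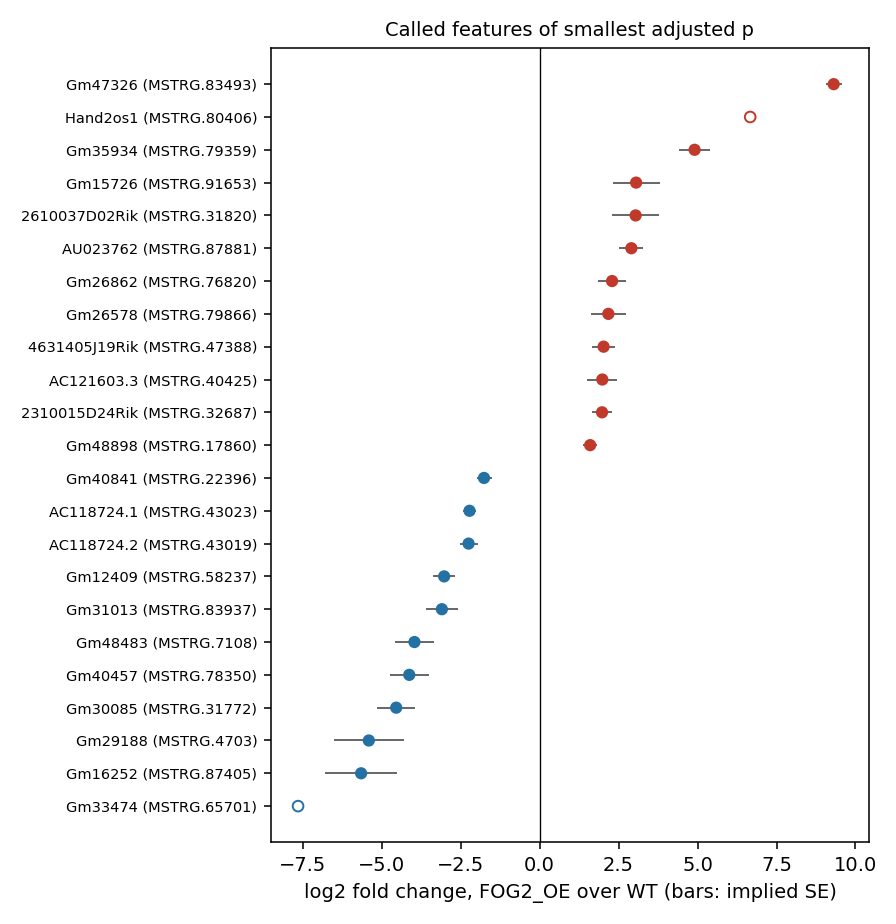
Log2 fold change of FOG2_OE over WT, with its SE as a bar, for 12 higher and 11 lower features of smallest adjusted p, 1 row each; open circles mark features at 0 in 1 group, which have no SE. The Gm47326 feature stands at 9.31, and the lower features reach -7.65 for Gm33474, which was at 0 in FOG2_OE.

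Among the features that fell, a pair of lincRNA genes beside Vldlr stood out by neighbourhood as well as by level. Vldlr encodes a receptor for triglyceride-rich lipoproteins. MSTRG.43023 of AC118724.1 (chr19:27135765-27167293) had 13.2 CPM in FOG2_OE against 61.7 CPM in WT (log2 fold change -2.22, SE 0.21, adjusted p = 7.2e-21, by the authors' deposited table), and its gene starts 24.5 kb from the start of Vldlr. MSTRG.43019 of AC118724.2 (chr19:27095254-27116670), whose gene starts 101 kb from Vldlr, had 3.48 CPM in FOG2_OE against 16.6 CPM in WT (log2 fold change -2.25, SE 0.29, adjusted p = 1.9e-11, by the authors' deposited table). Of the 19 neighbours of the AC118724.1 feature, which leave out the AC118724.2 feature, 13 were called lower, and so were 13 of the 17 neighbours of the AC118724.2 feature. These neighbourhoods overlap and share features. Annotated noncoding exons covered 2.19% and 2.58% of the AC118724.1 and AC118724.2 features.

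An abundant feature that fell lies opposite a muscle gene. D830005E20Rik lies opposite Trdn, which encodes triadin of the calcium release complex, and its feature MSTRG.7524 had 129.7 CPM in FOG2_OE against 511 CPM in WT (log2 fold change -1.98, SE 0.32, adjusted p = 2.4e-07, by the authors' deposited table). Trdn exons covered 3.10% of it, and annotated noncoding exons 4.26%. The RNA of Trdn and of the noncoding gene cannot be told apart where they share bases, introns of Trdn included.

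Features away from coding exons fell as well. MSTRG.58237 of Gm12409, whose start window holds the GATA motif shown above, had 2.27 CPM in FOG2_OE against 18.5 CPM in WT (log2 fold change -3.02, SE 0.34, adjusted p = 4.4e-14, by the authors' deposited table). MSTRG.22396 of Gm40841 had 11.3 CPM in FOG2_OE against 38.3 CPM in WT (log2 fold change -1.76, SE 0.24, adjusted p = 1.8e-10, by the authors' deposited table). MSTRG.31772 of Gm30085 had 0.0472 CPM in FOG2_OE against 1.13 CPM in WT (log2 fold change -4.54, SE 0.61, adjusted p = 1.3e-12, by the authors' deposited table). Annotated noncoding exons covered 5.81%, 15.35% and 57.7% of the features of Gm12409, Gm40841 and Gm30085. All 4 neighbours of the Gm30085 feature were called lower. Of the 14 neighbours of MSTRG.22396 0 were called, but these leave out MSTRG.22395 and MSTRG.22372, the other features of Gm40841, which fell too.

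Others were close to absent in FOG2_OE. MSTRG.65701 of Gm33474 stood at 0 in FOG2_OE and 0.320 CPM in WT, at least 25.3-fold lower with a floor of 3 counts over the FOG2_OE group (adjusted p = 4.1e-09 by the authors' deposited table), and 9 of its 12 neighbours were lower. MSTRG.4703 of Gm29188 and MSTRG.87405 of Gm16252 had 2 fitted counts each over the FOG2_OE group. Gm29188 had 0.00841 CPM in FOG2_OE against 0.424 CPM in WT, 50.3-fold lower (95% exact interval 13.5 to 420). Gm16252 had 0.00847 CPM in FOG2_OE against 0.505 CPM in WT, 59.7-fold lower (16.2 to 500). These intervals cover counting error only. The Gm16252 feature lies wholly over exons of Tmem108 on the opposite strand, and all 5 of its neighbours were lower.

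The remaining lower features named by adjusted p were scarce too. MSTRG.7108 of Gm48483 had 0.0427 CPM in FOG2_OE against 0.690 CPM in WT (log2 fold change -3.96, SE 0.61, adjusted p = 4.3e-10, by the authors' deposited table). MSTRG.78350 of Gm40457, 23.4 kb from Bag3, a co-chaperone gene of the muscle Z-disc, had 0.0516 CPM in FOG2_OE against 0.929 CPM in WT (log2 fold change -4.13, SE 0.62, adjusted p = 2.3e-09, by the authors' deposited table). MSTRG.83937 of Gm31013 had 0.0987 CPM in FOG2_OE against 0.856 CPM in WT (log2 fold change -3.10, SE 0.51, adjusted p = 2.0e-07, by the authors' deposited table), and 5 of its 6 neighbours were lower. Annotated noncoding exons covered 12.6%, 6.69% and 1.15% of the features of Gm48483, Gm40457 and Gm31013, the last of which spans 59742 bases.

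Noncoding genes with several called features each moved in a single direction. There were 9 such genes, 6 with lower features (among them 2310001H17Rik, 2310039L15Rik, Gm28231, Gm35041 and Gm40841) and 3 with higher features (AC121603.3, B830012L14Rik and Gm11515). Of 2310039L15Rik, 3 of 5 features fell by the authors' deposited table, among them MSTRG.10091 shown above, which had 0.0559 CPM in FOG2_OE against 0.294 CPM in WT. The other two called ones, MSTRG.10101 and MSTRG.10093, had 0.0974 and 0.0547 CPM in FOG2_OE and 0.511 and 0.315 CPM in WT. The 5 features together summed to 0.374 CPM in FOG2_OE against 1.42 CPM in WT. Both features of Gm35041 summed to 2.11 CPM in FOG2_OE against 10.3 CPM in WT. On the higher side both B830012L14Rik features summed to 3.70 CPM in FOG2_OE against 1.28 CPM in WT, those of AC121603.3 to 2.47 CPM in FOG2_OE against 0.720 CPM in WT, and those of Gm11515 to 1.73 CPM in FOG2_OE against 0.637 CPM in WT. Pieces of 1 noncoding gene may come from 1 transcript and cannot be taken as separate observations. Over the 281 genes with more than 1 feature, called or not, 171 had all their features on the same side of 0.

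Of the 5 most abundant features, those of Gm48898 and D830005E20Rik were called, as given above, and those of Gm37404, Gm37311 and Gm26892 were not. Above 100 fitted counts per library 12.7% of noncoding features and 12.01% of all features were called. MSTRG.52877 of Gm37404, the highest of all at 690.5 CPM in FOG2_OE against 407.5 CPM in WT, had a log2 fold change of 0.76 (SE 0.52, adjusted p = 0.495) by the authors' deposited table. It alone held 18.05% of the summed level in FOG2_OE, and 0.50% of it is annotated exon. MSTRG.35749 of Gm37311 had 154 CPM in FOG2_OE against 171 CPM in WT (adjusted p = 0.833 by the authors' deposited table), and MSTRG.3968 of Gm26892 had 152 CPM in FOG2_OE against 141 CPM in WT (adjusted p = 0.855 by the authors' deposited table). Per kilobase of listed span, the levels in FOG2_OE were 15.1 CPM for Gm48898, 11.4 for Gm26892, 9.55 for Gm37404, 7.70 for Gm37311 and 2.22 for D830005E20Rik. In WT the same measure gave 4.97 CPM for Gm48898, 10.5 for Gm26892, 5.63 for Gm37404, 8.56 for Gm37311 and 8.77 for D830005E20Rik. The feature assigned to Gm48898, which overlaps Gdf7, was thus the highest of the 5 per kilobase in FOG2_OE and the lowest of them in WT.

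Few well-known noncoding RNAs had features in this set, which leaves out features that carry a symbol or lie over small RNA exons. Of 75 listed noncoding genes (X inactivation, imprinted, nuclear, small RNA host, and heart and muscle RNAs) 7 had features here, 9 in all. Of these 9, 1 (Hand2os1) was called higher and 0 lower by the authors' deposited table, beside 1.16% and 4.65% of all features. Kcnq1ot1, an imprinted RNA antisense to the potassium channel gene Kcnq1, had 0.241 CPM in FOG2_OE against 0.0988 CPM in WT in MSTRG.78878 (log2 fold change 1.27, SE 0.53, adjusted p = 0.145, by the authors' deposited table). The most abundant feature of Pvt1, next to Myc, had 0.933 CPM in FOG2_OE against 0.576 CPM in WT (adjusted p = 0.385 by the authors' deposited table). Bvht, named braveheart for its role in cardiac commitment of mouse embryonic stem cells, had 1.54 CPM in FOG2_OE against 1.39 CPM in WT (adjusted p = 0.912 by the authors' deposited table). Nespas at the imprinted Gnas locus, the snoRNA host Snhg15 and the microRNA host Mir99ahg were not called either, with adjusted p from 0.617 to 0.831 by the authors' deposited table. Their SEs of 0.41 to 1.22 leave room for changes in either direction.

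Noncoding genes starting near heart genes were also followed. Of 99 genes on lists of rhythm channels and calcium handling, cardiac transcription factors, and sarcomere, stress and metabolism, 20 had 30 noncoding features whose gene starts within 100 kb. Of these 30, 1 rose (Hand2os1) and 2 fell by the authors' deposited table, beside 1.16% higher and 4.65% lower among all features. The median log2 fold change of the 30 was 0.13, beside -0.21 for all features. The lower ones were AC118724.1 beside Vldlr and MSTRG.27739 of Gm49390, which starts 46.1 kb from Gata4, the GATA factor that binds FOG2. Gm49390 had 1.76 CPM in FOG2_OE against 4.17 CPM in WT (log2 fold change -1.24, SE 0.39, adjusted p = 0.036, by the authors' deposited table). That call was lost with the median ratio centred at 1 (adjusted p = 0.122) and with 10 denominator degrees of freedom (adjusted p = 0.216). Among the 6 features near rhythm channel and calcium handling genes 0 were called, beside 5.81% of all features. The one 72.3 kb from the ryanodine receptor gene Ryr2, MSTRG.21914 of Gm47322, had 3.59 CPM in FOG2_OE against 4.83 CPM in WT. Near Nkx2-5, MSTRG.36568 of Gm20468 had 9.24 CPM in FOG2_OE against 6.33 CPM in WT (adjusted p = 0.432 by the authors' deposited table). Near Tbx5, MSTRG.66388 of 1700021F13Rik had 0.617 CPM in FOG2_OE against 0.499 CPM in WT (adjusted p = 0.808 by the authors' deposited table).

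Called noncoding features tended to lie among features that moved the same way. For each noncoding feature the median log2 fold change was taken over its neighbours, where there were at least 3. This left 1206 features. The 61 lower ones had neighbour medians with a median of -0.87, and 53 of these lay below 0. The 23 higher ones had a median of 0.52, with 4 below 0, and the 1122 uncalled ones a median of -0.24, all in log2 fold changes of the authors' deposited table. At least 1 neighbour was called lower beside 55.7% of the lower features, against 16.3% of the uncalled ones. At least 1 neighbour was called higher beside 21.7% of the higher features, against 4.81% of the uncalled ones. Across the 1206 features the log2 fold change and the neighbour median had a Pearson correlation of 0.45 and a Spearman correlation of 0.32. Neighbours share libraries, normalisation and possibly transcripts, so that this is a description without a test.

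**Figure D4:**
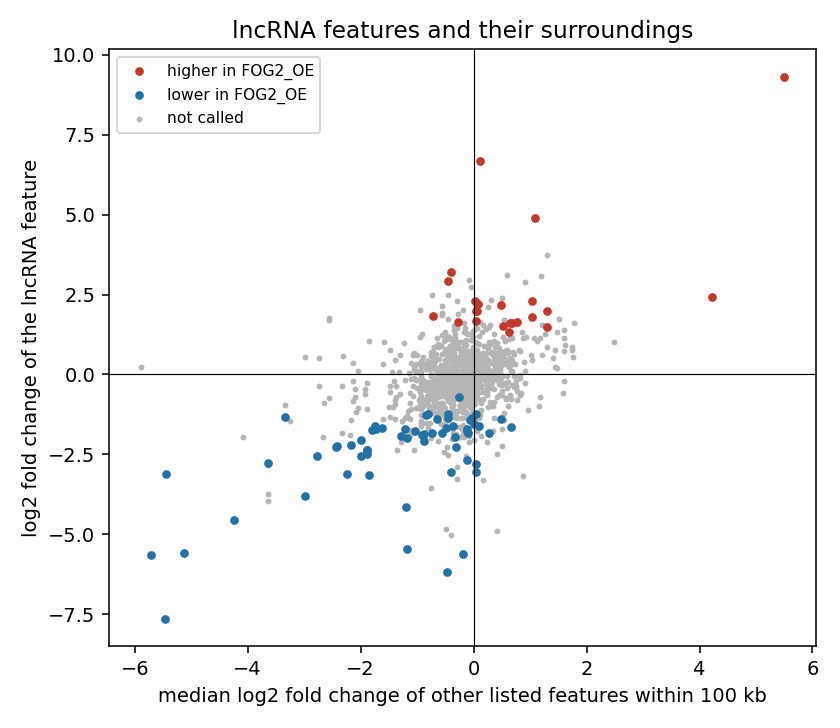
Log2 fold change of each noncoding feature (FOG2_OE over WT) against the median log2 fold change of its neighbouring features within 100 kb, for the 1206 features with at least 3 neighbours, with called features in colour. Features called lower mostly have neighbour medians below 0 (53 of 61) and features called higher mostly above 0 (19 of 23).

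Start windows could be matched to RefSeq for 388 of the 1086 noncoding genes. AGATAA, on either strand, occurred in 2 of 6 windows of genes with a higher feature (33.3%), 5 of 32 with a lower feature (15.6%) and 34 of 350 with no called feature (9.71%). It occurred in 13.1% of windows of all annotated noncoding genes of these types and in 11.4% of all RefSeq windows. The T-box motif AGGTGTGA occurred in 0 of the 6, 1 of the 32 (3.12%) and 2 of the 350 (0.571%) windows, and in 1.27% of all RefSeq windows. No test was made, and with 6 and 32 windows the shares rest on few matches.

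Sequence copies beyond Hand2os1 were looked for in the wholly exonic features. Of 607 searched, 42 matched a coding transcript of another locus at 85% identity or more over at least 50% of their length. Of these 42, Hand2os1 was called higher and Gm37697, which matched Cmah, was called lower by the authors' deposited table. Among all 612 wholly exonic features 4 were called higher and 10 lower (2.29%), beside 5.81% called of all features. Whether the 42 share reads with their matching genes was not tested. Over annotated pseudogene exons, on either strand, lay 32 of the 1493 features. Of these 4 (12.5%), Hand2os1 among them, were called higher and 2 (6.25%) lower by the authors' deposited table, beside 1.16% and 4.65% of all features. The 32 were more abundant, with a median of 88.7 fitted counts per library against 7.22 in all features. No test was made of the difference in shares.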

How the data were processed

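Libraries of RNA depleted of ribosomal and polyadenylated RNA were grouped by title and genotype. The submitters' processing notes name STAR, HTSeq (0.6.0), edgeR, deepTools and the mm10 build, without roles. The authors' deposited table holds, per the file headers, a p-value with its adjusted form, a likelihood ratio score, a log2 fold change and a mean log2 CPM for each feature. Its 6 sample columns are constant multiples of each other within a group (largest relative spread 1.8e-15), so that they were read as the authors' fitted values, a signal and not counts. The count tests planned for replicate counts, left-out replicates and a replicate block could therefore not be run, and the authors' deposited p-values are the main result.

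Effective library sizes were solved from 718 features above 300 fitted counts, and fitted values were divided by them to give CPM. The negative binomial dispersion of 28194 features with a likelihood ratio of at least 0.1 was solved from the deposited ratio, and features below that took the dispersion of features of like abundance. The dispersions gave SEs and calls on a centred scale. The median coefficient of variation was 50.2%. The solving of dispersions was tried on simulated data. The SEs checked there used the dispersions set in the simulation, so that SEs from solved dispersions were not checked. Overlaps used GENCODE M21, an annotation of that build, and starts are printed counting from 1. A floor is 3 counts over a group (0.0127 CPM in FOG2_OE and 0.0129 CPM in WT).

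Named features were the 12 higher and 12 lower with the smallest adjusted p (1 per noncoding gene), the 5 most abundant, those of listed noncoding RNAs, and called ones within 100 kb of listed heart genes. Gm37697, Cmah, the uncalled features near Hand2, Ryr2, Nkx2-5 and Tbx5, and the genes with several called features were named after their values were seen. Of the lower ones, 1 is not reported here. The features and lists were chosen with earlier results of these data known. Copies were searched with BLAST, leaving out 5 kb around each feature. The software was Python 3.11.15 with matplotlib 3.10.9, pandas 2.3.3, scipy 1.17.1 and numpy 2.4.6.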

Additional observations from a re-analysis of the deposited data

How the results depend on the processing

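The count of called noncoding features (105, 28 higher and 77 lower) became 68 (18 and 50) at an adjusted p under 0.01 (0.608% of all features higher and 2.69% lower), 33 (7 and 26) with 10 denominator degrees of freedom, and 0 (0 and 0) with 4, where the smallest adjusted p was 0.252. It was 36 (8 and 28) among the 869 features covered to at least 50% by noncoding exons, a smaller set. It stayed within 1.5 times on the centred scale (95), in features of at least 20 fitted counts (76 of 657, adjusted again), without TEC (98), without coding exons on either strand (84) and with 1 feature per gene (91). On the centred scale all 28 higher features were called again, and 57 of the 77 lower ones. The summed level became 4448 CPM in FOG2_OE on the centred scale, and 346 CPM in FOG2_OE and 382.3 CPM in WT over the features covered to at least 50%. Of 35 named features, 1 (Gm49390) left its side of the threshold on the centred scale, 6 with 10 degrees of freedom (Hand2os1, 2610037D02Rik, Gm26578, AC121603.3, Gm15726 and Gm49390) and 26 with 4. No called one changed direction under these 3 settings, while Gm37311, not called, had a log2 fold change of 0.065 on the centred scale, against -0.152 by the authors' deposited table. No paired analysis was possible because the sample columns hold fitted values without replicate spread. For the same reason leaving out replicates, edgeR's quasi-likelihood test and DESeq2 were not run. Depth limits the scarce features: the median SE was 0.80 under 20 fitted counts and 0.41 above.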
